A study of Mus musculus with 10 samples.

Results

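The transcription factors *Foxd1*, *Tcf21*, *Meis1*, *Meis2*, *Tbx18*, *Tshz3*, *Ebf1* and *Hic1* were followed in RNA-seq of whole mouse kidneys at E13.5, when nephrons begin to form. They were chosen by name as factors of the kidney stroma and of the mesenchyme around the ureter, and all 8 were found by symbol among the 35663 gene entries of the deposited table. The samples were 4 wild type libraries, 3 libraries labelled Foxd1-Cre (*Foxd1GC* controls) and 3 labelled Foxd1-Cre; Ntn1/cc (*Ntn1SPKO*), all from dissected kidneys of strain C57/b6. *Foxd1GC* controls and *Ntn1SPKO* embryos both carried the *Foxd1GC* allele, and wild type embryos did not. That allele is a knock-in of a GFP-Cre fusion at *Foxd1* itself, so it takes the place of a working *Foxd1* copy while it makes Cre in stromal progenitors. In *Ntn1SPKO* embryos this Cre removes the floxed *Ntn1* gene, which encodes the secreted guidance factor netrin 1, from the stroma. The labels do not say whether controls carried a floxed *Ntn1* copy. The study's legends count each n as an embryo, with several litters per experiment, but the labels do not tie the libraries to embryos or litters, so p-values measure the spread between these libraries.

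The stroma of the embryonic kidney is the loose connective tissue between and around the forming nephrons. Its cortical progenitors express *Foxd1*, a forkhead factor, and give rise to interstitial cells, pericytes and vascular smooth muscle. *Tcf21*, a basic helix-loop-helix factor, is used more widely in kidney mesenchyme, including stroma and podocytes. *Meis1* and *Meis2* are TALE homeobox factors that work with Pbx partners, and *Meis1* is a general stromal marker. The mesenchyme around the ureter stalk is a related population with its own factors: *Tbx18*, a T-box factor needed for ureter smooth muscle, and *Tshz3*, a teashirt zinc finger factor that acts in the same differentiation. *Ebf1*, an early B-cell factor family member, and *Hic1*, a zinc finger repressor, mark stromal and perivascular mesenchyme in several organs.

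The 8 genes lie on 6 chromosomes of build GRCm38 (GENCODE M21, positions counted from 1). *Foxd1* is at chr13:98354242-98359305 on the plus strand and *Hic1* at chr11:75164565-75169519 on the minus strand. *Tcf21* is at chr10:22817281-22820174, *Meis1* at chr11:18879817-19018985, *Meis2* at chr2:115863064-116065839 and *Tbx18* at chr9:87702800-87731260, all on the minus strand. *Tshz3* is at chr7:36698118-36773553 and *Ebf1* at chr11:44617317-45008091, both on the plus strand. The annotation places other genes over the spans of *Tcf21*, *Meis1*, *Tbx18*, *Tshz3* and *Ebf1*, introns included. Reads were quantified against coding sequences, and the strand setting is not given in the sources used here. Whether reads of these neighbours entered the values of the factors was not tested. *Foxd1*, *Meis2* and *Hic1* overlap no other annotated gene.

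The bases just upstream of *Foxd1* and *Tcf21* are shown because each holds letters bound by the family of another member. RefSeq start sites (GRCm38.p6) gave 10 windows of 250 upstream bases for the 8 genes. Bases inside the GENCODE gene were removed before printing, and capitals mark the motif. The *Foxd1* stretch is chr13:98353995-98354241 on the plus strand, and the *Tcf21* stretch is chr10:22820175-22820393 on the minus strand.
Foxd1: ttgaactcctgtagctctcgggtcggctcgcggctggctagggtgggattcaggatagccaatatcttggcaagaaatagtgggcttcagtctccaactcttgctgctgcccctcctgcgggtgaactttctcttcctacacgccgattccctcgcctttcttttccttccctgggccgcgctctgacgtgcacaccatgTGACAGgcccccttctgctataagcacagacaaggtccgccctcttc
Tcf21: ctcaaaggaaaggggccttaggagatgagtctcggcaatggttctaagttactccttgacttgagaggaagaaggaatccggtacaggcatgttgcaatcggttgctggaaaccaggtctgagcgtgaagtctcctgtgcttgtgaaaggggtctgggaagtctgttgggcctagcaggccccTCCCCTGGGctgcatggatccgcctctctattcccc
The capitals in *Foxd1* are the MEIS core TGACAG, which 15.9% of 32851 mouse windows of this length held on either strand. The capitals in *Tcf21* are a match to the EBF palindrome CCCNNGGGA, read here on the other strand, which 5.6% of windows held. The same palindrome was found in a *Hic1* window and the T-box element GGTGTGA (3.33% of windows) in an *Ebf1* window, both inside the gene body. None of the 10 windows held the forkhead core GTAAACA (3.17% of windows) or the E-box CAGCTG (13% of windows). A match is a string of letters and not a measured binding site.

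Values are FPKM, fragments scaled by transcript length and by library size, so levels can be compared between genes as well as between libraries. The steps between low values put depth roughly at 26 to 32 M fragments a library (1 M is 1e6), which puts about 238 to 911 fragments behind *Tbx18*, 525 to 1259 behind *Foxd1* and 8329 to 10733 behind *Meis2*. RNA of the whole organ was measured, so fewer cells of a type and less RNA per cell cannot be told apart. Kidney markers were present throughout: the summed level of 8 nephron progenitor genes was 351 to 447 FPKM and that of 7 podocyte genes 96.8 to 125.8 FPKM, whereas 6 adrenal and gonad genes summed to at most 1.63 FPKM. *Foxd1GC* control replicate 3 stood apart. Its 8 skeletal muscle genes summed to 319 FPKM against at most 82.2 elsewhere, and its 8 ureteric bud genes to 84.1 FPKM against at least 180 elsewhere. Marker sums also differed between the groups. The skeletal muscle genes summed to 13.1 to 29.4 FPKM in *Ntn1SPKO* libraries, below all wild type libraries (41.4 to 82.2 FPKM) and all controls. The lowest control was replicate 2, at 29.7 FPKM. Against wild type, 5 of 6 tested genes were lower at an unadjusted limma p under 0.05, beside 478 of 14432 genes, with a median log2 fold change of -1.79. The ureteric bud genes summed to 216.7 to 224 FPKM in *Ntn1SPKO* libraries, above all wild type libraries (202.7 to 208.9 FPKM). All 6 erythroid genes were higher in controls than in wild type at an unadjusted limma p under 0.05, beside 560 of 14594 genes. Their sums overlapped (7193 to 15570 against 4204 to 9895 FPKM), and *Ntn1SPKO* replicate 3 was highest, at 16720 FPKM. All 3 tested liver and gut genes were lower in *Ntn1SPKO* libraries than in controls by the same measure, beside 752 of 14550 genes. The part of these tissues in the differences of *Foxd1* and *Hic1* from wild type was not tested. Wild type replicate 3 stood apart in total, with a summed 1002638 FPKM against 795829 to 874966 in the others, and the 8 factors made up 0.0463% of it against 0.0573% to 0.0682% elsewhere. Embryo sex was not balanced: transcripts of 4 Y-linked genes were present, at a summed 88.6 to 98.1 FPKM, in wild type replicate 3, *Foxd1GC* control replicate 2 and all 3 *Ntn1SPKO* libraries, and reached at most 1.02 FPKM in the other 5. A difference between *Ntn1SPKO* and either other group therefore goes together with embryo sex, and values within libraries of like sex are given for each factor below. Those against wild type rest on wild type replicate 3 and those against controls on control replicate 2. *Ntn1*, the deleted gene, was 16.3, 13.1 and 10.7 FPKM in the *Ntn1SPKO* libraries, below all 7 others (24.2 to 51.4 FPKM).

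All 8 factors were expressed in every library, at mean levels that spanned 7.35 to 233 FPKM. *Meis2* was the most abundant, at 233 ± 21.1 FPKM (SD, n = 10), in the top 3.26% of 14534 genes. *Tcf21* followed at 83.3 ± 10.1 FPKM and *Meis1* at 74.5 ± 8.74 FPKM, neighbours whose ranges over the libraries overlapped (64.3 to 97.7 and 66.0 to 95.5 FPKM). *Hic1* had 42.7 ± 10.99 FPKM. *Ebf1* (25.0 ± 5.83 FPKM) and *Foxd1* (20.1 ± 5.59 FPKM) overlapped as well, and so did the ureteric pair, *Tbx18* (9.92 ± 3.41 FPKM) and *Tshz3* (7.35 ± 1.57 FPKM). The abundant factors were also the steadiest. The SD over all 10 libraries on the log2(FPKM+0.1) scale was 0.13 for *Meis2*, 0.16 for *Meis1* and 0.18 for *Tcf21*, below the median gene (0.19). It was 0.52 for *Tbx18* and 0.39 for *Foxd1*, the most variable members, whose highest library was 3.96 and 2.16 times the lowest.

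**Figure D1:**
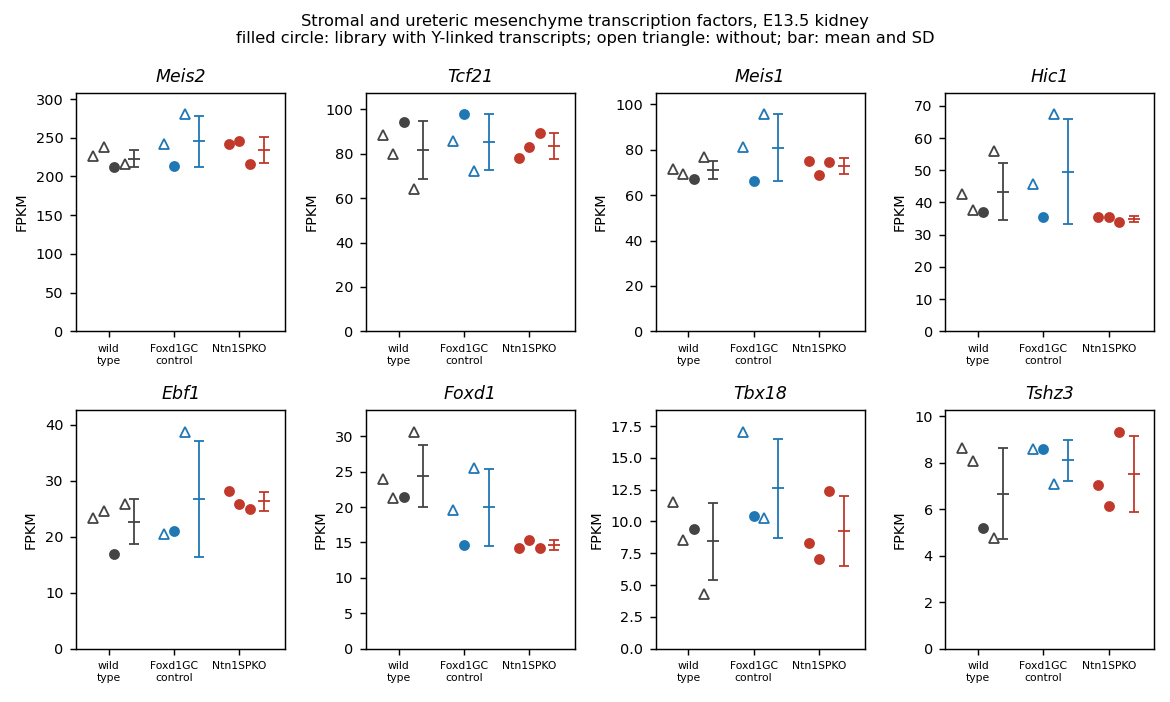
FPKM of each factor in each library, with the group mean and SD as a bar at the right of its points. Filled circles are libraries with Y-linked transcripts and open triangles those without. The 3 *Ntn1SPKO* libraries of *Foxd1* lie between 14.2 and 15.4 FPKM, below the 4 wild type libraries, and *Meis2*, *Tcf21* and *Meis1* overlap in all groups.

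*Foxd1*, the marker of cortical stromal progenitors, had its highest mean in wild type and its lowest in *Ntn1SPKO* kidneys. Wild type libraries had 24.1, 21.3, 21.4 and 30.7 FPKM, *Foxd1GC* controls 19.7, 14.6 and 25.6 FPKM, and *Ntn1SPKO* libraries 14.3, 15.4 and 14.2 FPKM. All 3 *Ntn1SPKO* libraries were below all 4 wild type libraries, and the controls overlapped with both groups. Control replicate 2, the control with Y-linked transcripts, lay among the *Ntn1SPKO* libraries. The 3 *Ntn1SPKO* libraries were close together (14.6 ± 0.667 FPKM, SD, n = 3), whereas the controls were spread (20.0 ± 5.46 FPKM, SD, n = 3).

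Against wild type, *Foxd1* in *Ntn1SPKO* kidneys was at 0.609 of the level, a log2 fold change of -0.72 (95% interval -1.02 to -0.41). The exact permutation test gave the smallest p that 3 against 4 libraries allow (p = 0.0286, two-sided), and limma's adjusted p over all genes was 0.193, so the gene did not pass the call used here, which asked for a 2-fold difference and an adjusted p below 0.1. Among the libraries with Y-linked transcripts, which leaves wild type replicate 3, the library with the high total, alone in its group, the log2 fold change was -0.55 (limma adjusted p = 0.0596, with the lone library assumed to vary like the *Ntn1SPKO* ones). Against *Foxd1GC* controls, which share the targeted *Foxd1* copy, the log2 fold change was -0.41 (95% interval -0.88 to 0.06; exact permutation p = 0.2, where 0.1 is the smallest possible; limma adjusted p = 0.45). That value was -0.0021 (limma adjusted p = 0.998) against the control with Y-linked transcripts only. It was -0.61 (limma adjusted p = 0.136) without that control, and -0.21 (limma adjusted p = 0.699) without control replicate 3. *Foxd1GC* controls against wild type differed by -0.31 (95% interval -0.78 to 0.17; exact permutation p = 0.314; limma adjusted p = 0.679), by -0.16 among libraries without Y-linked transcripts, by -0.10 without control replicate 2, by -0.50 without control replicate 3 and by -0.19 without wild type replicate 4. What remains of the targeted allele's message in the *Foxd1* values was not tested.

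*Tcf21* overlapped among all groups. It was at 88.6, 79.7, 94.4 and 64.3 FPKM in wild type, 85.8, 97.7 and 72.3 FPKM in *Foxd1GC* controls and 78.1, 83.1 and 89.4 FPKM in *Ntn1SPKO* libraries. The log2 fold change of *Ntn1SPKO* was -0.02 (95% interval -0.31 to 0.26) against controls and 0.04 (95% interval -0.26 to 0.35) against wild type. Among libraries with Y-linked transcripts these values were -0.23 and -0.18. Leaving out 1 library turned the sign in both, to 0.0824 without control replicate 2 and to -0.0665 without wild type replicate 4. Wild type replicate 4 had the lowest *Tcf21* of all 10 libraries together with the highest *Foxd1*.

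*Meis1* and *Meis2*, the TALE homeobox pair, both varied little, but they did not rise and fall together in every group. *Meis1* was at 71.5, 69.2, 67.2 and 76.6 FPKM in wild type, 81.1, 66.0 and 95.5 FPKM in controls and 75.0, 68.6 and 74.6 FPKM in *Ntn1SPKO* libraries. *Meis2* was at 226, 238, 213 and 216 FPKM in wild type, 242, 214 and 280 FPKM in controls and 242, 246 and 216 FPKM in *Ntn1SPKO* libraries. Control replicate 3 was the highest library for both, while *Ntn1SPKO* replicate 2 had the lowest *Meis1* and the highest *Meis2* of its group. *Meis1* differed between *Ntn1SPKO* and wild type by 0.03 on the log2 scale (95% interval -0.13 to 0.19) and *Meis2* by 0.07 (95% interval -0.10 to 0.24). Against controls the log2 fold changes were -0.14 for *Meis1* (95% interval -0.46 to 0.19) and -0.06 for *Meis2* (95% interval -0.32 to 0.21). Against the control with Y-linked transcripts alone they had the opposite sign, 0.14 and 0.13. Without control replicate 3 they were -0.0096 and 0.0420, and without control replicate 2 -0.28 and -0.15. Against wild type replicate 3 alone, *Ntn1SPKO* differed by 0.11 for *Meis1* and 0.14 for *Meis2*. Controls against wild type differed by 0.17 for *Meis1* and 0.13 for *Meis2*, and by 0.0426 and 0.0290 without control replicate 3. Neither gene passed the test in any comparison (limma adjusted p of 0.628 or more).

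*Tbx18*, the ureteric mesenchyme factor, had the largest spread of the 8 over all 10 libraries. Wild type libraries had 11.5, 8.53, 9.38 and 4.32 FPKM, controls 17.1, 10.5 and 10.3 FPKM, and *Ntn1SPKO* libraries 8.27, 7.08 and 12.4 FPKM. The groups overlapped in all 3 comparisons. Controls differed from wild type by 0.62 on the log2 scale (95% interval -0.17 to 1.40; exact permutation p = 0.2; limma adjusted p = 0.665), by 0.33 without wild type replicate 4, by 0.38 without control replicate 1 and by 0.81 among libraries without Y-linked transcripts. *Ntn1SPKO* differed from controls by -0.44 (95% interval -1.11 to 0.22), by -0.20 without control replicate 1, by -0.27 without *Ntn1SPKO* replicate 2, by -0.67 without *Ntn1SPKO* replicate 3 and by -0.22 against the control with Y-linked transcripts alone. It differed from wild type by 0.17 (95% interval -0.61 to 0.96) and by -0.0620 among libraries with Y-linked transcripts. The sign of this value turned without wild type replicate 4 (-0.11), and without *Ntn1SPKO* replicate 3 (-0.05).

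*Tshz3*, the teashirt factor of the same lineage, had 8.63, 8.07, 5.19 and 4.77 FPKM in wild type, 8.58, 8.61 and 7.09 FPKM in controls and 7.06, 6.14 and 9.34 FPKM in *Ntn1SPKO* libraries. As for *Tbx18*, wild type replicate 4 was the lowest of all libraries, and the groups overlapped. Log2 fold changes were -0.12 for *Ntn1SPKO* against controls, 0.20 against wild type and 0.32 for controls against wild type, with limma adjusted p-values of 0.743, 0.948 and 0.688. Among libraries with Y-linked transcripts the former were -0.22 and 0.50, and among libraries without them controls differed from wild type by 0.17. Against controls the value ranged from -0.29 without *Ntn1SPKO* replicate 3 to 0.0097 without *Ntn1SPKO* replicate 2. Against wild type it was 0.0529 without wild type replicate 4, 0.0298 without *Ntn1SPKO* replicate 3 and 0.33 without wild type replicate 1. That of controls against wild type was 0.18 without wild type replicate 4.

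*Ebf1* was at 23.2, 24.6, 16.9 and 25.9 FPKM in wild type, 20.4, 21.1 and 38.7 FPKM in controls and 28.1, 25.9 and 24.9 FPKM in *Ntn1SPKO* libraries. Control replicate 3, the library with high skeletal muscle genes, was the highest and wild type replicate 3 the lowest. *Ntn1SPKO* differed from wild type by 0.23 on the log2 scale (95% interval -0.11 to 0.57; exact permutation p = 0.2; limma adjusted p = 0.947). With embryo sex as a covariate the estimate was 0.63 (limma adjusted p = 0.0126), under the 2-fold limit, and it rests on wild type replicate 3, the only wild type library with Y-linked transcripts and the one with the high total. Without that library the difference was 0.0965. Against controls the difference was 0.04 (95% interval -0.56 to 0.64), and it was 0.32 (limma adjusted p = 0.875) against the control with Y-linked transcripts alone, 0.34 without control replicate 3 and -0.12 without control replicate 1. Controls against wild type differed by 0.19, by -0.11 without control replicate 3 and by 0.0568 without wild type replicate 3.

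*Hic1* was at 42.7, 37.7, 36.9 and 56.0 FPKM in wild type, 45.7, 35.4 and 67.3 FPKM in controls and 35.4, 35.6 and 33.8 FPKM in *Ntn1SPKO* libraries. All *Ntn1SPKO* libraries were below all wild type libraries, with a log2 fold change of -0.29 (95% interval -0.62 to 0.04; exact permutation p = 0.114; limma adjusted p = 0.93), and -0.16 without wild type replicate 4. Against controls the value was -0.45 (95% interval -0.98 to 0.08; exact permutation p = 0.2; limma adjusted p = 0.45), and it was -0.20 without control replicate 3 (limma adjusted p = 0.679) and -0.67 without control replicate 2 (limma adjusted p = 0.15). *Hic1* also separated the libraries by sex across all groups: the 5 with Y-linked transcripts had 33.8 to 36.9 FPKM and the 5 without 37.7 to 67.3 FPKM, as 2.02% of 14534 genes did in either direction. *Ntn1* was parted the same way (10.7 to 27.1 against 28.3 to 51.4 FPKM), and all 3 *Ntn1SPKO* libraries are on the same side of this split. Within the former, *Ntn1SPKO* differed by -0.02 from the control and by -0.08 from wild type on the log2 scale. Genotype and sex cannot be told apart here for the *Ntn1SPKO* group. Controls against wild type differed by 0.16 (95% interval -0.38 to 0.70) and by -0.0867 without control replicate 3, 0.38 without control replicate 2, 0.09 without wild type replicate 3 and 0.31 among libraries without Y-linked transcripts.

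**Figure D2:**
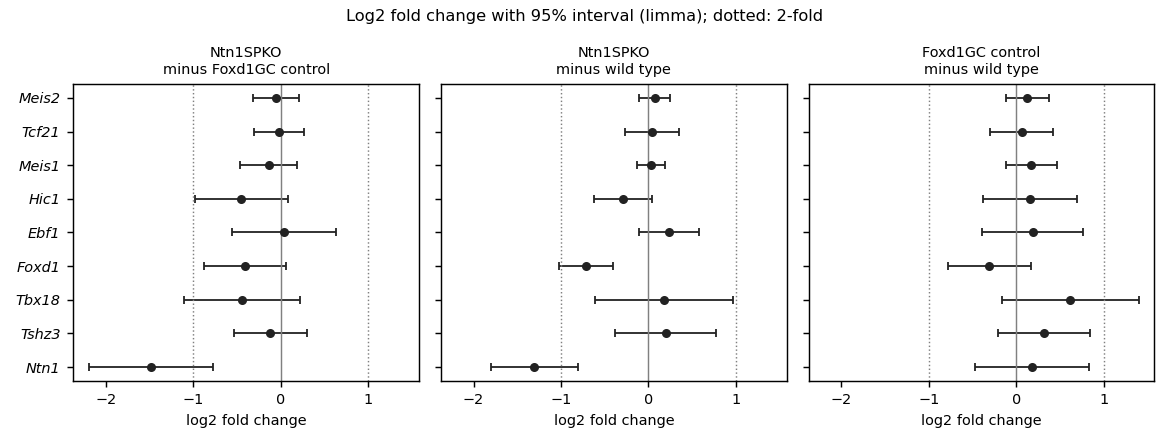
Log2 fold change of each factor and of *Ntn1* in the 3 comparisons, first group minus second, with limma's 95% interval as a bar and 2-fold as dotted lines. Among the 8 factors the interval lies wholly below 0 only for *Foxd1* in *Ntn1SPKO* against wild type, and that of *Ntn1* lies below 0 in both *Ntn1SPKO* comparisons.

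Counted over the 8 factors, 0 were called in any of the 3 comparisons by limma with Benjamini-Hochberg adjustment. In *Ntn1SPKO* against *Foxd1GC* controls, 7 estimates were below 0 and 1 above, with a median log2 fold change of -0.13 beside 0.0067 over all 14550 genes tested. At an unadjusted p under 0.05 the count was 0 of 8, beside 10.7% of all genes, and 0 of 8 did not overlap between the groups, beside 19.9% of all genes. Calls were rare among all genes as well, at 0.055%. The deleted gene, *Ntn1*, was not called in either *Ntn1SPKO* comparison (limma adjusted p = 0.447 against controls and 0.14 against wild type). In *Ntn1SPKO* against wild type, 1 of 8 (*Foxd1*) had an unadjusted p under 0.05, beside 5.76% of 14432 genes, and 2 of 8 (*Foxd1* and *Hic1*) did not overlap, beside 7.1%. The median over the 8 was 0.06, and 0.0485% of all genes were called. In controls against wild type, 0 of 8 had an unadjusted p under 0.05 or did not overlap, beside 7.06% and 8.09% of 14594 genes, with 0.00685% called. The median of the 8 was then 0.17, with 7 estimates above 0 and *Foxd1* below.

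Ratios of factors inside a library do not depend on how that library was scaled, and 4 were tested in the 3 comparisons. *Foxd1* was compared with *Meis1*, a factor of the stroma as a whole. *Foxd1* was at 33.6%, 30.8%, 31.9% and 40.1% of the *Meis1* level in wild type, at 24.2%, 22.2% and 26.8% in *Foxd1GC* controls and at 19.1%, 22.4% and 19.0% in *Ntn1SPKO* libraries. Every library with the *Foxd1GC* allele was below every wild type library, including wild type replicate 3 and control replicate 2, which both had Y-linked transcripts. The log2 ratio differed from wild type by -0.48 in controls and by -0.75 in *Ntn1SPKO* kidneys, each with the smallest exact permutation p possible (p = 0.0286, two-sided; 0.172 after Benjamini-Hochberg adjustment over the 12 ratio tests). The ratio to *Meis1* was lower in every control library than in every wild type library for 2.3% of genes, and lower in every *Ntn1SPKO* library for 3.63%. These comparisons share the wild type libraries. In controls the difference in ratio includes that of *Meis1*, which was 0.17 above wild type on the log2 scale with overlap. *Foxd1* alone differed there by -0.31, with overlap as well. Between *Ntn1SPKO* and controls the ratio differed by -0.27, with overlap (exact permutation p = 0.2).

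*Foxd1* relative to *Tcf21* was 27.2%, 26.7%, 22.7% and 47.7% in wild type, 22.9%, 15.0% and 35.3% in controls and 18.3%, 18.5% and 15.9% in *Ntn1SPKO* libraries. *Ntn1SPKO* libraries were all below wild type (log2 difference -0.76, exact permutation p = 0.0571, 0.228 after adjustment over the ratio tests), as 2.74% of genes were in relation to *Tcf21*, while controls overlapped with both. *Tbx18*, the ureteric factor, relative to *Foxd1*, the cortical factor, ranged from 14.1% in wild type replicate 4 to 87.0% in *Ntn1SPKO* replicate 3, and the groups overlapped (exact permutation p of 0.143 or more). Of the paralogues, *Meis1* was at 27.9% to 35.5% of *Meis2* in all 10 libraries, with log2 differences of -0.08 to 0.04 between groups (exact permutation p of 0.629 or more).

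**Figure D3:**
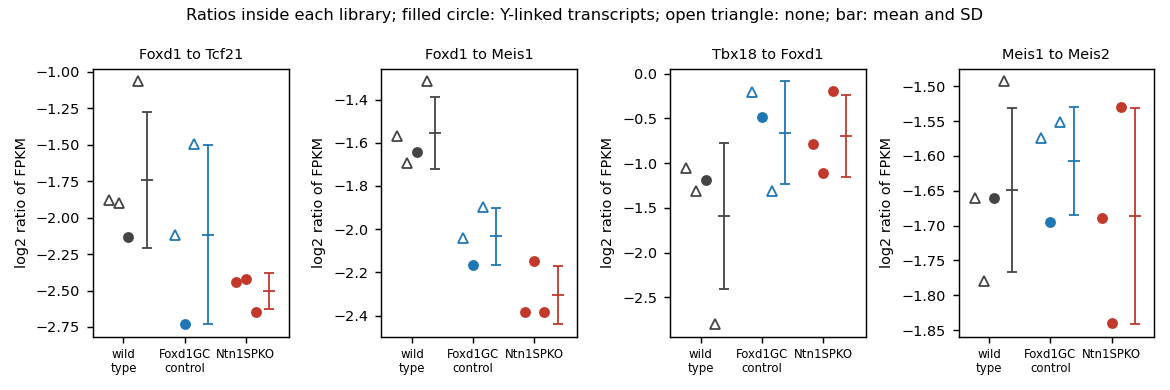
Log2 ratio of FPKM for 4 pairs of factors in each library, by group, with mean and SD as a bar. Filled circles are libraries with Y-linked transcripts and open triangles those without. For *Foxd1* to *Meis1* the 4 wild type libraries lie above all 6 libraries that carry the *Foxd1GC* allele.

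Some libraries stood away from the means in several factors at once. In wild type replicate 4, *Foxd1* was 0.65 and *Hic1* 0.43 above their means over 10 libraries on the log2 scale, while the deviation was -1.10 for *Tbx18*, -0.58 for *Tshz3* and -0.36 for *Tcf21*. In control replicate 3, *Hic1* was 0.69, *Ebf1* 0.66, *Foxd1* 0.39 and *Meis1* 0.37 above their means, and *Tcf21* deviated by -0.19. The summed level of 18 stroma markers was 3113 FPKM in that library, the highest of the 10. Much of this sum came from a few abundant genes such as *Col3a1* (787 FPKM) and *Col1a1* (564 FPKM). The markers did not all move the same way, as *Aldh1a2* (181 FPKM) and *Pdgfrb* (14.1 FPKM) were at their lowest of all libraries there. Control replicate 1 had the highest *Tbx18*, 0.86 above its mean, with *Tshz3* 0.25 above. The part of tissue makeup in these differences was not tested.

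**Figure D4:**
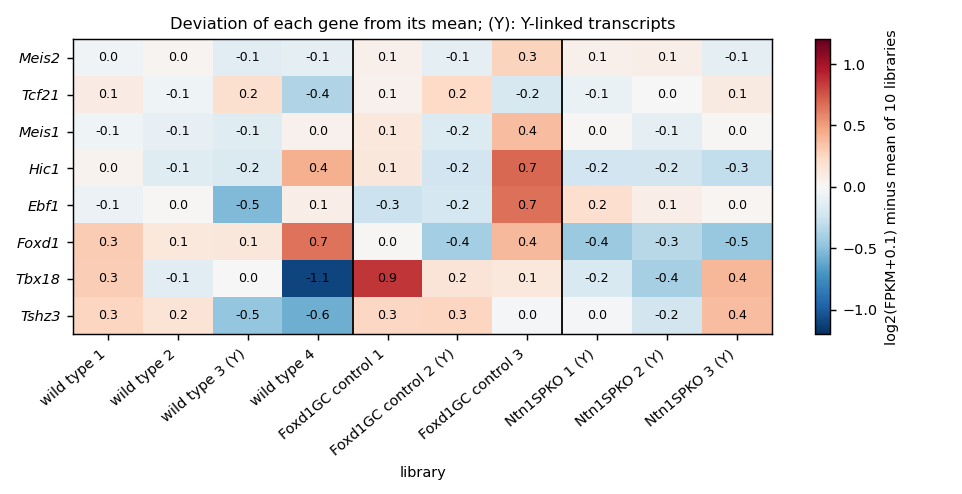
Deviation of log2(FPKM+0.1) from each factor's mean over the 10 libraries, printed in each cell, with libraries in columns and (Y) for those with Y-linked transcripts. Wild type replicate 4 combines high *Foxd1* and *Hic1* with low *Tbx18*, *Tshz3* and *Tcf21*, and the *Ntn1SPKO* columns show *Foxd1* at -0.45 to -0.34.

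Likeness between genes was measured as the SD over the 10 libraries of the difference of their log2 values, so that a low value means a parallel course, and is given as a description. It was 0.11 for *Meis1* with *Meis2*, the steadiest members, and 0.75 for *Foxd1* with *Tbx18*, the most variable, so these values follow in part the spread of each gene. For *Hic1* with *Foxd1* it was 0.24. Among 13182 genes, those most parallel to *Foxd1* were *Tmtc1* (0.15) and *Itgb8*, an integrin chain (0.15), and to *Hic1* *Zfp703* and *Zbtb7c* (both 0.09). *Bambi*, a TGF-beta pseudoreceptor (0.07), and *Tagln2* (0.09) were most parallel to *Tcf21*. For *Meis1* they were *Mxd4* (0.04) and *Slc49a4* (0.05), and for *Meis2* *Ldb2* (0.05) and *Nhlrc3* (0.06). For *Tbx18* they were *Npy1r* (0.16) and *Tgm5* (0.17), for *Tshz3* the Wnt receptor *Fzd1* (0.14) and *Cplx2* (0.16), and for *Ebf1* *Sowahb* (0.13) and *Des*, the muscle intermediate filament desmin (0.15). Steady genes give low values more readily, so values of different members are not comparable.

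Paralogues of the members did not all keep to the same course. *Ebf2*, at 4.61, 3.53, 3.49 and 4.33 FPKM in wild type, was at 1.61, 1.98 and 2.13 FPKM in *Ntn1SPKO* libraries, all below wild type. The log2 fold change was -1.02 (95% interval -1.38 to -0.67; exact permutation p = 0.0286; limma adjusted p = 0.13). *Ebf3* had a log2 fold change of -0.30 in the same comparison (exact permutation p = 0.0286; limma adjusted p = 0.431), again with no overlap. *Ebf4* was at 0.25 (limma adjusted p = 0.858) and *Ebf1* at 0.23, so the estimates within the family differed in sign. In controls, *Ebf2* spread over 7.06, 1.96 and 15.3 FPKM and *Ebf3* over 31.5, 17.0 and 53.5 FPKM, with control replicate 2, which had Y-linked transcripts, at the *Ntn1SPKO* level for both. *Pbx2* and *Pbx3*, partners of Meis factors, were expressed at 84.3 ± 1.19 and 38.4 ± 0.811 FPKM in *Ntn1SPKO* kidneys (SD, n = 3), with log2 fold changes of 0.11 and 0.18 against wild type. *Meis3* (0.06), *Tshz1* (0.18), *Tshz2* (0.15), *Foxd2* (0.21) and *Hic2* (0.19) had limma adjusted p-values of 0.909 or more in that comparison.

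Of 32 other stromal transcription factors, 0 were called in each comparison by limma. *Ntn1SPKO* against controls had 1 lower at an unadjusted p under 0.05, beside 752 of 14550 genes, and a list median of -0.09. That gene was *Nfib*, a nuclear factor I protein (-0.63, limma adjusted p = 0.447). Against wild type 5 were lower and 1 higher at that limit, beside 478 lower and 354 higher of 14432 genes. The list median was 0.08. Those with the lowest p were *Ebf2*, *Ebf3* and *Klf4*, a Krüppel-like factor of smooth muscle progenitors, at -0.63 (limma adjusted p = 0.25). *Klf4* was at 7.39, 6.62 and 7.20 FPKM in *Ntn1SPKO* libraries, below all wild type libraries (9.45 to 13.8 FPKM), with control replicate 2 at 7.22 FPKM. Against controls the log2 fold change of *Klf4* was -0.89 (limma adjusted p = 0.447), with overlap. Controls against wild type had 3 higher, beside 560 of 14594 genes, and a list median of 0.16. The 3 were *Gata6* (0.44), *Foxd2* (0.34) and *Ebf4* (0.34), with limma adjusted p = 0.665 for each.

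Of 18 genes listed for ureteric mesenchyme and its smooth muscle, 16 could be tested and 0 were called. *Myocd*, the coactivator that drives smooth muscle genes, was at 1.48, 1.12 and 1.68 FPKM in *Ntn1SPKO* libraries and at 3.61, 2.62 and 2.60 FPKM in controls, without overlap (0.5001 of the control level, exact permutation p = 0.1, limma adjusted p = 0.447). It was the only member of that list under an unadjusted p of 0.05 there, beside 10.7% of all genes. Wild type, at 0.882 to 1.98 FPKM, was also below the controls (0.97 for controls, limma adjusted p = 0.665). *Tbx3*, a T-box factor of ureteric mesenchyme, was higher in every *Ntn1SPKO* library than in every control (0.88, exact permutation p = 0.1, limma adjusted p = 0.447), with control replicate 3 at 8.71 FPKM and the other two at 19.5 and 26.6 FPKM. *Tbx2* had 0.54 with overlap. Against wild type, 0 of 16 passed an unadjusted p of 0.05, beside 5.76% of all genes. The lowest p-values were those of *Tbx3* (0.34), *Hhip* (-0.43) and *Ptch1* (0.22), the latter pair being targets of hedgehog signalling. In controls against wild type, *Gli1* (0.33) came next after *Myocd*, with overlap. The list medians were -0.10, 0.07 and 0.09 in the order *Ntn1SPKO* against controls, *Ntn1SPKO* against wild type and controls against wild type.

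Of 18 general stroma markers 17 could be tested and 0 were called. *Ntn1* was lower in every *Ntn1SPKO* library (-1.48 against controls, limma adjusted p = 0.447; -1.30 against wild type, limma adjusted p = 0.14). *Smoc2*, a secreted matrix protein, was at 22.8, 15.1 and 16.5 FPKM in *Ntn1SPKO* libraries, below controls (45.8, 22.9 and 59.4 FPKM) and wild type (34.1 to 54.9 FPKM), with log2 fold changes of -1.15 (limma adjusted p = 0.447) and -1.24 (limma adjusted p = 0.14). Control replicate 2 exceeded the nearest *Ntn1SPKO* library by less than the SD of that group. *Cxcl12*, a chemokine of the stroma, was higher in every *Ntn1SPKO* library than in wild type (0.34, exact permutation p = 0.0286, limma adjusted p = 0.541). Controls, at 155.1, 88.1 and 203.9 FPKM, overlapped with the *Ntn1SPKO* libraries (92.5 to 118.9 FPKM). *Col3a1*, a fibrillar collagen, had -0.62 against controls (limma adjusted p = 0.447). *Aldh1a2*, which makes retinoic acid in the stroma, was lower in every control library than in wild type (-0.32, exact permutation p = 0.0286, limma adjusted p = 0.665). The *Ntn1SPKO* libraries, at 208.2, 199.7 and 183.8 FPKM, were also all below wild type (213.9 to 256.1 FPKM). *Lum* (1.00) and *Col1a2* (0.80), both of extracellular matrix, had higher means in controls than in wild type, with overlap and limma adjusted p = 0.665 for both. The list median was -0.39 for *Ntn1SPKO* against controls, -0.07 for *Ntn1SPKO* against wild type and 0.18 for controls against wild type, beside medians within 0.01 of 0 over all genes.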

How the data were processed

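Whole-kidney RNA-seq of 10 libraries was used as deposited. Per the study's methods and the submitters' processing notes, the authors made reads with bcl2fastq 2.17.1.14, quantified them with Salmon against coding sequences of Ensembl GRCm38, and imported them to genes with tximport. The deposited values are FPKM, not counts, and already carry size-factor scaling. Because the study's count model could not be applied, limma 3.58.1 was run on log2(FPKM+0.1) of genes averaging 0.5 FPKM or more (R 4.3.3, eBayes with intensity trend, Benjamini-Hochberg over all genes). Fold changes on this scale understate those of low genes. Calls needed a 2-fold difference and an adjusted p below 0.1. Single values were tested by exact permutation, two-sided. Depth is rough, from steps between low values. The limma fit, but not the depth estimate, was tested on simulated data. The 8 members, the lists and the tests were chosen with earlier results of these data known. Named genes were the members, *Ntn1*, up to 3 genes of lowest p per list and comparison, and the 2 most parallel genes per member; some genes are not reported here. Paralogues (Ebf, Pbx, Tshz, Foxd, Meis and Hic families), and values shown per library for them, were chosen after values were seen. Alternatives were other pseudocounts, filters, scalings, fits and left-out libraries, a replicate block, sex as a covariate and, added after seeing the data, libraries of like sex only.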

Additional observations from a re-analysis of the deposited data

How the results depend on the processing

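The count of factors called was 0 in all 3 comparisons under every alternative run. No factor's estimate reached 2-fold in any setting (log2 fold changes of -0.78 to 0.81). Where the 2-fold limit was kept, the count could therefore not rise above 0. The alternative without a fold limit, at an adjusted p under 0.05, also gave 0. Of the single-factor estimates, 420 kept their direction and side of the threshold and 28 changed sign, none of them from a called value. *Foxd1* kept its sign in each comparison, with log2 fold changes of -0.78 to -0.55 against wild type (limma adjusted p 0.0596 to 0.705) and -0.61 to -0.0021 against controls (limma adjusted p 0.136 to 1) for *Ntn1SPKO*. An adjusted p under 0.1 was reached below the 2-fold limit by *Foxd1* without wild type replicate 4 (0.0981) and among libraries with Y-linked transcripts (0.0596), and by *Ebf1* there (0.0584) and with sex as a covariate (0.0126).

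In *Ntn1SPKO* against controls, scaling to the same summed FPKM turned *Tcf21* to 0.0147, and sex as a covariate, or libraries with Y-linked transcripts only, turned *Meis1* to 0.14 and *Meis2* to 0.13. Against wild type these same settings gave *Tcf21* -0.18 and *Tbx18* -0.0620. Leaving out 1 library at a time gave, in *Ntn1SPKO* against controls, -0.13 to 0.0824 for *Tcf21*, -0.15 to 0.0420 for *Meis2*, -0.29 to 0.0097 for *Tshz3*, -0.12 to 0.34 for *Ebf1* and -0.36 to 0.20 for the *Tbx18* to *Foxd1* ratio. In *Ntn1SPKO* against wild type it gave -0.0665 to 0.12 for *Tcf21*, -0.11 to 0.35 for *Tbx18*, -0.12 to 0.0390 for *Meis1* to *Meis2* and -0.83 to -0.67 for *Foxd1* to *Meis1*. In controls against wild type it gave -0.0453 to 0.18 for *Tcf21*, -0.11 to 0.35 for *Ebf1*, -0.0867 to 0.38 for *Hic1*, -0.0023 to 0.0931 for *Meis1* to *Meis2* and -0.55 to -0.40 for *Foxd1* to *Meis1*. With 1 library fewer, the smallest p the exact test can give is 0.1 or 0.0667, so the *Foxd1* to *Meis1* ratio could not pass 0.05 in either comparison with wild type. Beyond the settings' own smaller sample numbers, the cause of these changes was not tested.

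Same-numbered libraries of different groups did not deviate together (correlations of -0.0388 to 0.0785 over 14534 genes), so the numbers were not taken as pairs. A replicate block, which drops wild type replicate 4 for lack of a partner, left 0 factors called. It gave *Foxd1* -0.41 (limma adjusted p = 0.451) in *Ntn1SPKO* against controls and -0.60 (limma adjusted p = 0.444) against wild type, and turned *Tcf21* to -0.0665 and *Tbx18* to -0.11 in the latter and *Tcf21* to -0.0453 in controls against wild type.

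The small number of libraries, the unequal sex of the groups and the marker levels of control replicate 3 limit these comparisons, and *Tbx18* rests on the fewest fragments.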

Other observations

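*Tbx18* and *Tshz3* were lowest of all 10 libraries in wild type replicate 4, at 4.32 and 4.77 FPKM, and *Foxd1* was highest there, at 30.7 FPKM. *Foxd1GC* control replicate 3 had the highest *Meis1*, *Meis2*, *Ebf1* and *Hic1* of the 10 libraries, together with the highest *Ebf2* (15.3 FPKM), *Ebf3* (53.5 FPKM) and *Klf4* (22.1 FPKM) and the lowest *Tbx3* (8.71 FPKM). Among genes picked after their values were seen, *Foxd1GC* control replicate 2 was within 1 FPKM of an *Ntn1SPKO* library for *Foxd1*, *Hic1*, *Ebf2*, *Ebf3*, *Klf4* and *Smoc2*. The list is not complete, as *Myocd*, at 2.62 against 1.68 FPKM, was as near. This window is wide for low genes such as *Ebf2* (1.96 FPKM in that control), and the share of all genes within it was not counted.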
